A study of Panax japonicus with 15 samples.

Results

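A set of 66 transcript clusters was low in the G period of Panax japonicus fruit and expressed in each of the other 4 periods. They were picked from 462117 in the table by their TPM, a level per transcript length that is scaled to the same total in each library. The highest TPM of the 3 G libraries had to be at most 0.5 times the lowest TPM of the 12 libraries outside G, and that lowest TPM had to be at least 5. In addition, the mean of log2(TPM + 1) in the B period had to exceed that in the Y period by less than 1. The low level in G is therefore the choice itself and not a finding, and values for G are given as a description. The 66 are called the G-low clusters here.

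Panax japonicus is a medicinal relative of ginseng. The material was pericarp, the wall of the fruit taken without the seed; the labels name 5 fruit colour traits and give no strain, agent, age or order of the periods. Total RNA of 15 samples was sequenced, 3 from each of the periods labelled B, P, G, R and Y, whose letters the labels do not spell out. The protocol calls the 3 samples of a period biological replicates. Whether they came from separate plants is not stated, and the p-values cover the spread among these samples alone.

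A fruit wall changes colour when green chlorophyll is broken down and other pigments, such as carotenoids and anthocyanins, come to show. Such changes in other plants go along with large shifts in the set of transcripts that the pericarp makes. The table pairs no identifier with a gene name, so functions and sequences of the G-low clusters are not given. In bulk tissue, fewer cells of a type and less RNA per cell cannot be told apart.

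Read depth behind the values is unknown, because TPM keeps none. The number of transcript clusters above 0 TPM lay between 97466 and 187300 per library, and between 145724 and 172147 in the G libraries. Counts below those of all G libraries came from P replicates 1 and 2 alone, at 97466 and 130422. G replicates 1 and 3, at 145724 and 156264, lay below every B, R and Y library. Among those, Y replicate 3 was lowest, at 157065. The 3 P libraries stood apart, since the clusters kept for testing held 68.1% to 78.4% of their TPM against 82.0% to 92.4% in the other 12 libraries. The 10811 clusters with at least 5 TPM in all 12 libraries outside G, from which the set was drawn, had a median of 19.0 to 21.3 TPM in the G libraries and of 17.6 to 23.8 TPM in the others. Outside P and G the lowest median was 20.2 TPM, in B replicate 3, above the 19.0 TPM of G replicate 3. All 66 G-low clusters carry the prefix 64249, as do 84.0% of all identifiers and all of those 10811. Of the 10811, 10232 also met the B minus Y limit. Shares over the 10811 that involve B or Y thus come from a set without that limit.

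Together the G-low clusters took up 0.647% (P replicate 1) to 1.21% (B replicate 1) of the TPM in the libraries outside G. In each G library they took up under 0.1%. Their summed level was 870 TPM in G replicate 1, 821 in G replicate 2 and 706 in G replicate 3. It was 12075, 9521 and 8744 TPM in B replicates 1, 2 and 3, and 6471, 6920 and 6608 TPM in the P replicates. In the R replicates it was 8616, 8695 and 9452 TPM, and in the Y replicates 6954, 6873 and 7905 TPM. The sums in B and R did not overlap with those in P, and those in B and R did not overlap with Y either, whereas B overlapped with R and P with Y. A few clusters carried most of it: the 3 most abundant made up 34% of the summed mean outside G and the 10 most abundant 64.4%. Median-ratio scaling, which rescales each library by its typical ratio to the average over clusters present in all libraries, put P at 7447 ± 197 and Y at 6577 ± 668 TPM (SD, n = 3 each). The means on the TPM as deposited stood in the other order, at 6666 ± 230 in P and 7244 ± 574 in Y (SD, n = 3 each).

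**Figure D1:**
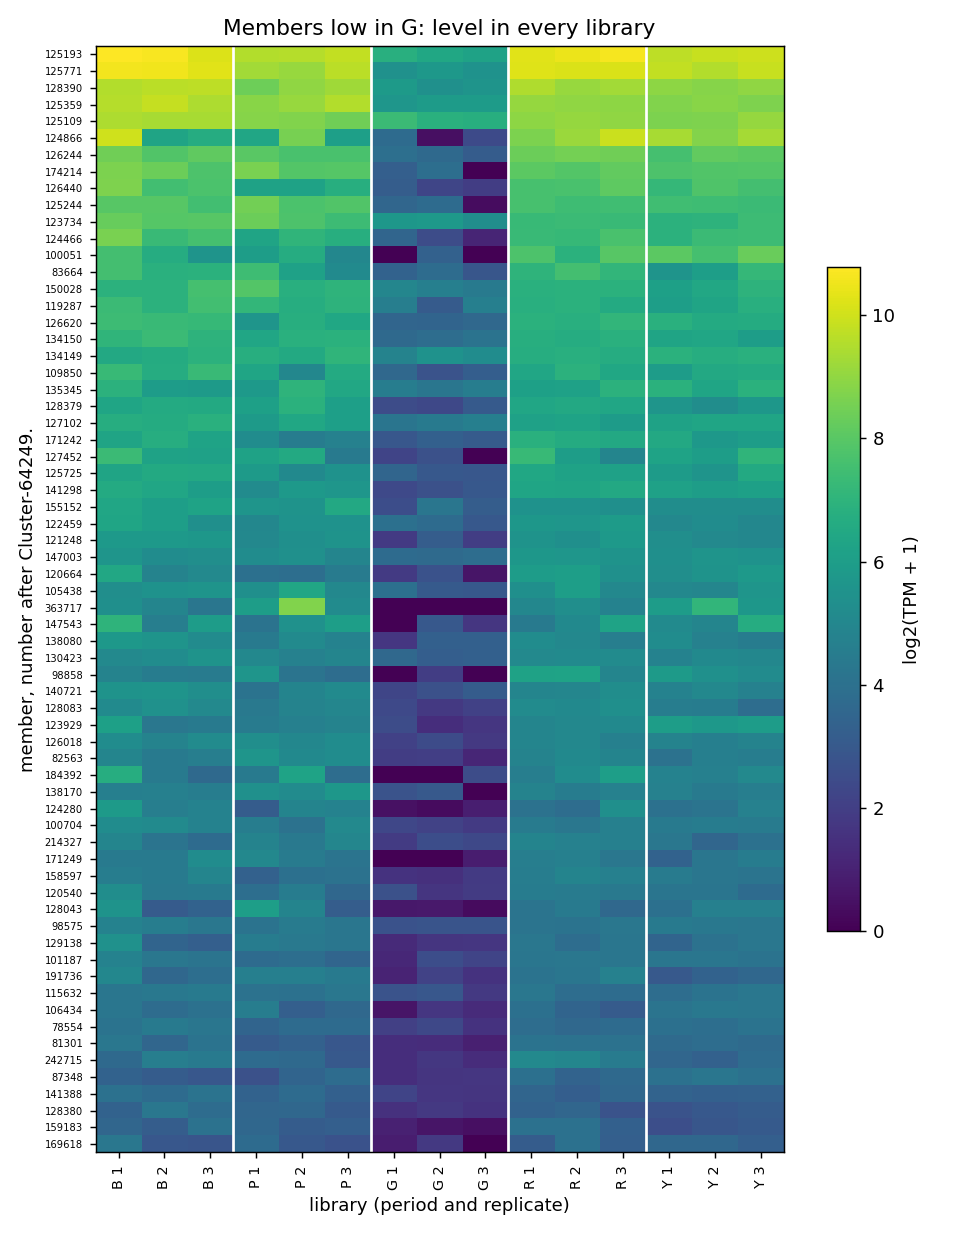
Level of each of the 66 G-low clusters (rows, ordered by median TPM outside G) in each of the 15 libraries (columns, grouped by period), as log2(TPM + 1). The G columns are darker than all others in every row, as the choice requires, while brightness within the other 12 columns is even in most rows and patchy in a few, such as those of Cluster-64249.124866 and Cluster-64249.363717.

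The drop in G ran from about 3-fold to nearly 80-fold in the mean. Over the 65 with a value above 0 in G, the mean TPM outside G divided by the mean TPM in G had a median of 9.17 and ranged from 2.98 to 78.4. Cluster-64249.363717, at 0 in all G libraries, has no such ratio. For 29 of the 66, with that cluster counted, the mean outside G was at least 10 times the mean in G. The gap between the nearest single libraries was smaller: the lowest TPM outside G was at least 3 times the highest in G for 34, at least 5 times for 19 and at least 10 times for 7. The median of the highest G value was 7.16 TPM.

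**Figure D2:**
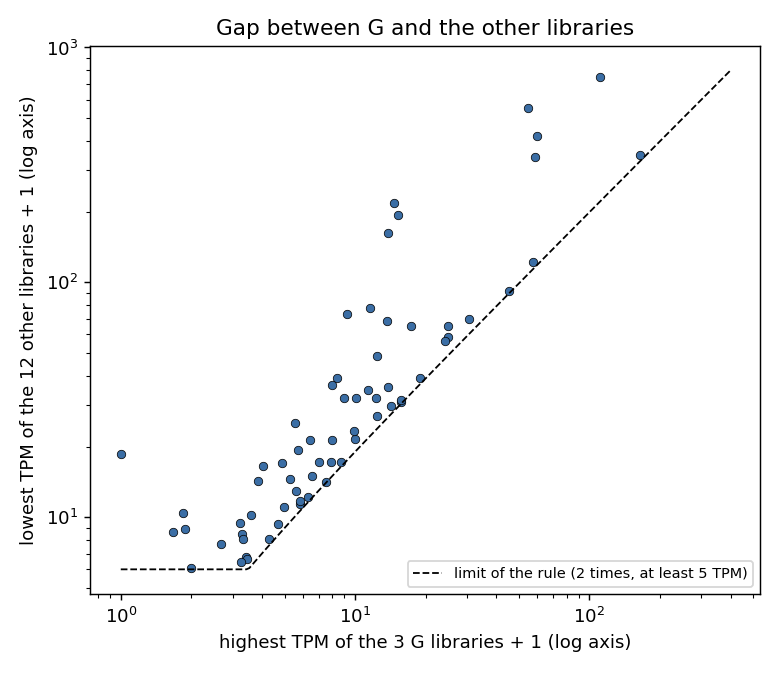
Lowest TPM of the 12 libraries outside G against the highest TPM of the 3 G libraries for the 66 G-low clusters, 1 point each, with 1 added and both axes on a log scale. The dashed line is the limit of the choice; 34 points have a gap of at least 3 times, and the point at the far left is Cluster-64249.363717, listed at 0 in all G libraries.

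Values lay on both sides close to each limit. Just inside the 0.5-fold limit lay Cluster-64249.115632, with 13.2 TPM as the lowest value outside G and 6.50 as the highest in G, and Cluster-64249.105438, with 30.02 and 14.7 TPM. Just outside lay Cluster-64249.131372, with 21.4 and 10.7 TPM, and Cluster-64249.128329, with 10.6 and 5.37 TPM. At the limit of 5 TPM, Cluster-64249.159183 and Cluster-64249.87348 were inside with lowest values of 5.06 and 5.47 TPM. Cluster-64249.214617 and Cluster-64249.121651 were outside with 4.82 and 4.75 TPM. The B minus Y limit left out 85 clusters that met both TPM limits. Nearest to it, Cluster-64249.123734 and Cluster-64249.128379 were inside at log2 differences of 0.97 and 0.94, and Cluster-64249.124722 and Cluster-64249.124675 outside at 1.01 and 1.02.

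With the same TPM limits and no condition on B and Y, 151 clusters were low in G alone, against 28 in P alone, 8 in B alone, 2 in Y alone and 1 in R alone. These counts have no test of their own. Because the G contrasts chose the set, the next counts are printed as a description from which nothing is read. All 66 were lower in G than in B, P and R, where 3.04%, 1.73% and 1.37% of the 138664 clusters tested were called lower in G (limma, Benjamini-Hochberg adjusted p under 0.05). Against Y, 65 were lower, beside 0.687% of all tested; the other was Cluster-64249.128380, at 1.93, 2.42 and 1.97 TPM in the G replicates and 5.78, 6.94 and 7.82 TPM in the Y replicates.

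The most abundant G-low cluster outside G was Cluster-64249.125193. It stood at 1757, 1616 and 1195 TPM in B replicates 1, 2 and 3, at 748, 762 and 896 TPM in P, at 110.2, 84.2 and 73.2 TPM in G, at 1243, 1407 and 1602 TPM in R and at 836, 931 and 988 TPM in Y. B and R overlapped and lay above P and Y, which overlapped with each other; the mean outside G was 13.1 times the mean in G. The level in P differed from that in B by -0.91 ± 0.17 on the log2(TPM + 1) scale (SE; limma adjusted p = 0.0293), and R differed from P by 0.82 ± 0.17 (SE; adjusted p = 0.0199). Of 24 alternative settings, the call against B was lost in 10, with adjusted p up to 0.175, and the call of R against P in 6, with adjusted p up to 0.161.

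Next was Cluster-64249.125771, with 1536, 1476 and 1251 TPM in the B replicates, 631, 551 and 820.4 in P, 43.2, 53.4 and 44.1 in G, 1230.4, 1161 and 1163 in R and 887, 744 and 944 in Y. Here B lay above R, R above Y, and Y overlapped with P. It was lower in P than in B by -1.10 ± 0.15 (log2 difference and SE; limma adjusted p = 0.00508) and higher in R than in P by 0.85 ± 0.15 (adjusted p = 0.00783). Each of these calls was lost in 2 of the 24 alternatives. Over the 12 libraries outside G these 2 clusters had the highest Pearson correlation of the 2145 pairs of G-low clusters, 0.92 on the log2(TPM + 1) scale. The value was 0.53 for deviations from the period means in the same 12 libraries. It is a description, since both clusters were read from the same libraries.

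The mean was highest in B for the other abundant clusters too, with 1 exception. Cluster-64249.128390 had 752, 819 and 834 TPM in B, 340.4, 503 and 605 in P, 57.8, 42.1 and 46.2 in G, 719.8, 559 and 620.4 in R and 494, 452 and 506 in Y. Every B value exceeded every value elsewhere, but no contrast among B, P, R and Y passed the test (lowest limma adjusted p = 0.0501, Y against B). Cluster-64249.125359 had 773, 901 and 695 TPM in B, 467, 556 and 737 in P, 50.3, 58.6 and 59.0 in G, 531, 506 and 490.2 in R and 422, 459 and 418 in Y. In this cluster B overlapped with P, and Y lay below B, P and R. Cluster-64249.125109 kept the highest level in G of the whole set, at 164, 112 and 108 TPM, against 692, 666 and 659.8 TPM in B, 453, 429 and 349 in P, 493, 542 and 507 in R and 407, 409 and 534 in Y. Its B values again lay above all others.

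The exception, Cluster-64249.124866, was uneven within periods. It stood at 1009.8, 78.0 and 99.8 TPM in the B replicates, at 82.1, 382 and 67.2 in P, at 12.7, 0.36 and 4.33 in G, at 398, 577 and 972 in R and at 659, 444 and 634 in Y. A single B library and a single P library were thus at or near the R and Y levels while the other B and P libraries were under 100 TPM. Its difference of 2.23 ± 0.96 between R and P on the log2 scale (SE) did not pass the test (limma adjusted p = 0.268).

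**Figure D3:**
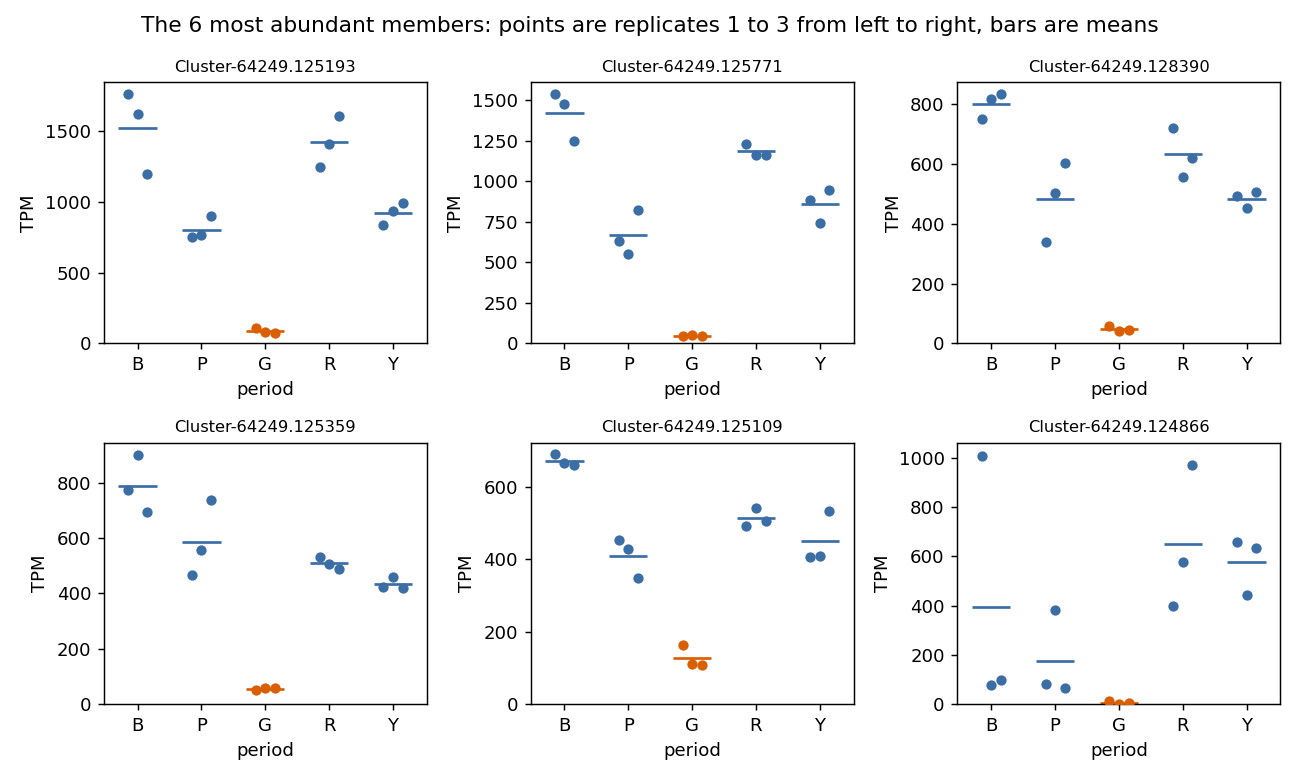
TPM of the 6 G-low clusters with the highest median outside G, by period on the horizontal axis; points are replicates 1, 2 and 3 from left to right, G in orange and the other periods in blue, and bars are period means of 3 libraries. In 4 of the panels, those of Cluster-64249.125193, Cluster-64249.125771, Cluster-64249.128390 and Cluster-64249.125109, P and Y sit below B, while in the panel of Cluster-64249.124866 B replicate 1 sits at 1009.8 TPM and the other B libraries at 78.0 and 99.8.

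The clusters with the widest gaps between G and the rest differed in how low they were in G. Cluster-64249.363717 was listed at 0 in all 3 G libraries and had 40.4, 28.7 and 17.6 TPM in B, 62.9, 431 and 36.0 in P, 31.1, 39.2 and 26.6 in R and 60.4, 134 and 50.7 in Y. Its span over the 12 libraries, 24.6-fold from lowest to highest, was the largest of the 66 and rested on P replicate 2. Cluster-64249.126244 was low in every G library, at 14.2, 12.02 and 7.83 TPM, against 350.0, 229 and 284 in B, 261, 203 and 203 in P, 326, 371 and 343 in R and 193, 292 and 263 in Y. There the B and Y libraries overlapped with each other, and R lay above P and Y. Cluster-64249.126440 had 411, 183 and 211 TPM in B, 72.2, 72.1 and 109 in P, 8.19, 3.76 and 2.93 in G, 198, 205 and 271 in R and 144, 223 and 189.6 in Y. All P values were below all values of B, R and Y, and R exceeded P by 1.41 ± 0.35 (log2 difference and SE; limma adjusted p = 0.0449). The call was lost in 15 of 24 alternative settings, among them median-ratio scaling and the leaving out of P replicate 1 or 2 or any R library.

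In a further group G replicate 3 was far below the other G libraries. Cluster-64249.174214 had 8.69, 13.7 and 0 TPM in the G replicates, against 397, 324 and 217 in B, 385, 234 and 242 in P, 268, 238 and 292 in R and 216, 233 and 238 in Y. Cluster-64249.125244 had 10.8, 12.8 and 0.29 TPM in G, against 250.3, 252 and 181 in B, 359.8, 212 and 232 in P, 198, 174 and 177 in R and 175, 172 and 161 in Y. Both were even outside G, spanning 1.84-fold and 2.23-fold over the 12 libraries. In all, 7 of the 66 (10.6%) had G replicate 3 under 0.25 times both other G libraries, against 1 each for G replicates 1 and 2. Among the 10811 clusters from which the set was drawn, that share was 0.833% for G replicate 3, 1.07% for G replicate 1 and 0.333% for G replicate 2. These shares are not like with like, because the choice used the G values and kept clusters low in G. In G replicate 3 the median was 3.055 TPM for the 66 and 18.99 TPM for the 10811. The other 5 of the 7, picked out for this pattern, were Cluster-64249.120664, Cluster-64249.124466, Cluster-64249.127452, Cluster-64249.138170 and Cluster-64249.169618.

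Listed zeros were spread over the G libraries. Of the 66, 56 were above 0 in all 3 G libraries, 5 were listed at 0 in 1 of them, 4 in 2 and 1 in all 3. There were 6 listed at 0 in G replicate 1, 3 in G replicate 2 and 7 in G replicate 3. The highest of the 3 G values came from replicate 2 for 29, from replicate 1 for 21 and from replicate 3 for 16. No G-low cluster was under 5 TPM outside G, by the choice, while 35, 30 and 38 were under 5 TPM in G replicates 1, 2 and 3.

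Outside G the typical G-low cluster varied moderately. The ratio of the highest to the lowest of the 12 libraries had a median of 2.86, beside 2.63 over the 10811 clusters at 5 TPM or more there. It was under 2 for 11 of the 66, at least 5 for 16 and at least 10 for 3. The steadiest was Cluster-64249.134149, with 91.0, 98.5 and 120.2 TPM in B, 107, 91.5 and 130.02 in P, 27.0, 44.2 and 37.0 in G, 105, 112 and 101 in R and 117, 105 and 114 in Y. Values of all 4 periods outside G overlapped in it. It was chosen for printing after its values were seen.

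On the TPM as deposited, among the 4 periods outside G, the mean log2(TPM + 1) was most often highest in B and most often lowest in P or Y. B was highest for 34 of the 66, R for 15, P for 10 and Y for 7. The lowest of the 4 was P for 32, Y for 25, B for 5 and R for 4. Among the 10232 clusters that met the 5 TPM limit and the B minus Y limit, B was highest for 26.3% and P lowest for 57.8%, against 51.5% and 48.5% of the 66. Y was lowest for 14.0% of the 10232 and for 37.9% of the 66. With median-ratio scaling, P was lowest for 16 of the 66 (24.2%) and Y for 36 (54.5%), beside 27.8% and 21.6% of the 10232, and B was highest for 29 (43.9%), beside 20.2%. The most frequent combinations on the TPM as deposited were B highest with P lowest, for 18, B highest with Y lowest, for 13, and R highest with P lowest, for 11. The choice bears on these counts, because it leaves out clusters with B far above Y. The correlation of pairs of G-low clusters over the 12 libraries had a median of 0.186 and was below 0 for 32.8% of the 2145 pairs.

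Between P and B, which the choice did not compare, 3 G-low clusters passed the test, all lower in P, or 4.55% of the 66. The share called lower in P was 0.509% of all 138664 tested and 0.971% of the 10811 at 5 TPM or more outside G. Besides the 2 most abundant clusters, the third was Cluster-64249.171242, with 76.7, 105 and 76.2 TPM in B, 37.3, 22.2 and 26.0 in P, 6.58, 8.87 and 7.5 in G, 115, 98.8 and 90.6 in R and 90.2, 52.8 and 62.1 in Y. Its P values lay between those of G and those of the other 3 periods, with no overlap. It was lower in P than in B by -1.58 ± 0.25 (log2 difference and SE; limma adjusted p = 0.0121), a call lost in 2 of the 24 alternatives. The P libraries lay wholly below the B libraries for 24 clusters (36.4%) and wholly above for 2 (3.03%), beside 22.9% and 4.11% of the 10811. The median difference was -0.43, against -0.26 over all tested and -0.25 over the 10811.

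Scaling by the median ratio moved the P minus B median over all tested clusters by 0.15, with 133773 clusters tested in place of 138664. Over the 10811 that median went from -0.25 to 0.03. The median of the G-low clusters went from -0.43 to -0.15, and 2 stayed called lower, beside 0.335% of all tested and 30 of the 10811. These 2 were Cluster-64249.125771 at -0.81 and Cluster-64249.171242 at -1.29, while Cluster-64249.125193 at -0.62 was not called (limma adjusted p = 0.0898). The count was 7 without P replicate 3, 5 without G replicate 1 and 1 without B replicate 2. Shares of all tested were not taken for these counts, nor for the later ones with libraries left out or a replicate block.

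Between R and P, 5 clusters passed, all higher in R, or 7.58% of the 66, beside 2.29% of all tested and 8.68% of the 10811 called higher. The difference with the smallest p was that of Cluster-64249.171242, 1.82 ± 0.25 (log2 difference and SE; limma adjusted p = 0.0014). This call held in all 24 alternatives, with adjusted p from 0.000257 to 0.0161. The others were Cluster-64249.125771, Cluster-64249.125193, Cluster-64249.126440 and Cluster-64249.242715. Cluster-64249.242715 had 11.8, 23.5 and 19.9 TPM in B, 12.8, 11.9 and 7.11 in P, 1.63, 2.32 and 1.61 in G, 32.4, 30.3 and 21.2 in R and 10.9, 9.24 and 13.0 in Y. R lay above P and Y in it and overlapped with B, and it exceeded P by 1.34 ± 0.31 (log2 difference and SE; limma adjusted p = 0.0353). This call was lost in 12 of the 24 alternatives, among them the leaving out of P replicate 2 or 3 or any R library.

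All R libraries exceeded all P libraries for 22 G-low clusters (33.3%) and fell below them for 4 (6.06%), beside 39.0% and 5.98% of the 10811. The median difference of 0.25 was also near that over all tested, 0.27. Scaling shifted the latter by -0.16, and the median over the 10811 went from 0.33 to 0.03. After scaling the median of the G-low clusters was -0.06 and Cluster-64249.171242 alone stayed called, at 1.51. Called higher then were 1.42% of all tested and 489 of the 10811. The count fell to 2 without P replicate 2, R replicate 2 or R replicate 3, and to 3 without P replicate 1, R replicate 1 or Y replicate 1. With the replicate number as a block it was 3.

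Between Y and P, only Cluster-64249.171242 passed, higher in Y by 1.23 ± 0.25 (log2 difference and SE; limma adjusted p = 0.0121), a call lost in 4 of the 24 alternatives. That is 1.52% of the 66, beside 3.30% of all tested and 12.6% of the 10811 called higher. Y lay wholly above P for 12 clusters (18.2%) and wholly below for 12 (18.2%), beside 38.2% and 7.72% of the 10811. The 10811 were not held to the B minus Y limit, so the sets differ in a condition on Y. The median difference was 0.05, against 0.24 over all tested. The direction of the calls turned with scaling, which moved the median of all tested by -0.14 and that of the 10811 from 0.32 to 0.04. The median of the 66 was then -0.24. With this scaling none of the 66 was called higher in Y and 6 (9.09%) were called lower. Called lower in Y were also 1.41% of all tested and 483 of the 10811. On the TPM as deposited, the count was 4 without B replicate 1, with 3 higher and 1 lower in Y. It was 3 without P replicate 3, with 2 higher and 1 lower, and 3 without G replicate 3, with 1 higher and 2 lower. Without G replicate 1 or 2 it was 2, all higher, and without P replicate 2 or Y replicate 1 it was 0.

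Neither R against B nor Y against R gave a call among the 66 with limma at an adjusted p under 0.05, beside 1.45% and 0.217% of all tested and 5.59% and 0.398% of the 10811. A p that misses the threshold does not show that the levels were alike. At an unadjusted p under 0.05 there were 7 for R against B, all lower in R, and 13 for Y against R, 12 of them lower in Y. The shares of all tested at that unadjusted threshold were not taken, so nothing about the 66 is read from these counts. The lowest adjusted p was 0.0676 for R against B, in Cluster-64249.125359, and 0.199 for Y against R, in Cluster-64249.242715. R lay wholly above B for 2 clusters (3.03%) and wholly below for 16 (24.2%), beside 20.0% and 13.0% of the 10811. Y lay wholly above R for 6 (9.09%) and wholly below for 21 (31.8%), beside 15.6% and 14.0%. The B minus Y limit was set for the 66 and not for the 10811, which bears on both comparisons. The median difference was -0.16 for R against B and -0.22 for Y against R, against 0.00 and -0.01 over all tested. For R against B the count was 1 without P replicate 1 or P replicate 3, and 1 without all P libraries.

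The choice capped the excess of B over Y, so the contrast of Y and B is a description. On it, 5 clusters (7.58%) were lower in Y and none higher, beside 1.30% of all tested and 365 of the 10811 called lower (limma). The 10811 were not held to the B minus Y limit. The 5, all given because they were called, were Cluster-64249.125359, Cluster-64249.125771, Cluster-64249.134150, Cluster-64249.123734 and Cluster-64249.125193. Cluster-64249.123734 had 308, 245 and 250.1 TPM in B, 324, 215 and 166 in P, 50.7, 56.3 and 37.8 in G, 153, 163 and 155 in R and 121, 125 and 165 in Y. B lay above R and Y in it, and P overlapped with B and lay above R and Y. The 85 clusters that the B minus Y limit left out had a median R minus P of -0.11, a median Y minus P of -0.90 and a median Y minus R of -0.77. The 66 had 0.25, 0.05 and -0.22 in the same order. The B minus Y limit is what split the sets, so their values that involve Y follow in part from it and are a description. No test of these differences between the sets was made.

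**Figure D4:**
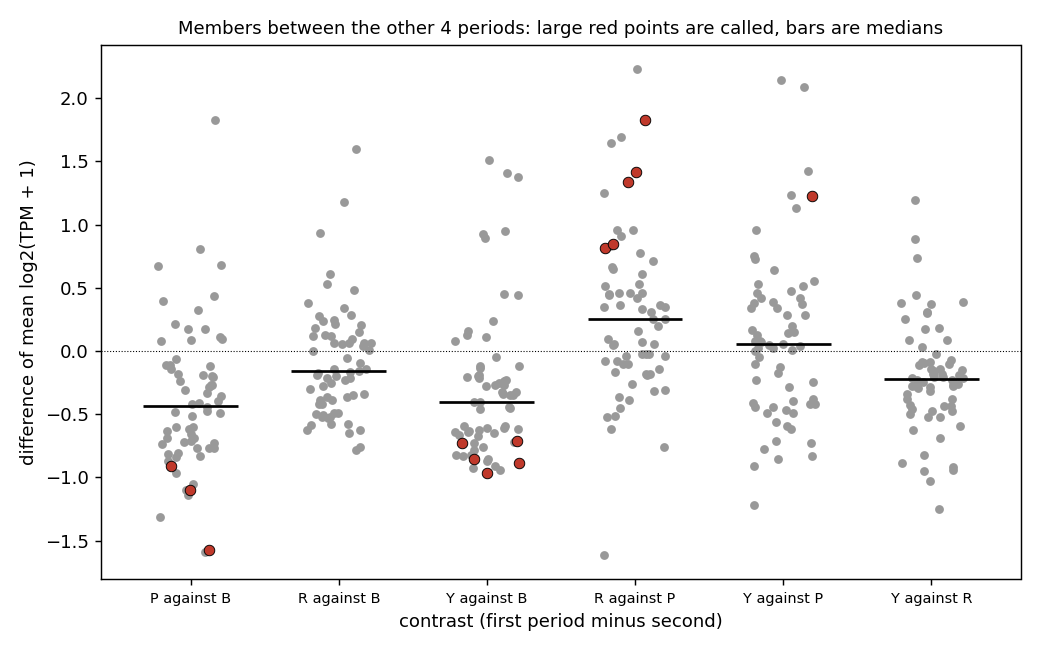
Difference of mean log2(TPM + 1) for each of the 66 G-low clusters in the 6 contrasts among B, P, R and Y, as the first period minus the second; large red points passed the limma test at an adjusted p under 0.05 and bars are medians. From left to right the medians lie at -0.43, -0.16, -0.41, 0.25, 0.05 and -0.22.

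For each other period, the 2 G-low clusters whose mean there exceeded the next highest mean by most were taken. For Y the widest margin over the next period was 0.89 on the log2(TPM + 1) scale, in Cluster-64249.123929, with 69.2, 18.4 and 20.7 TPM in B, 21.5, 25.1 and 27.0 in P, 4.69, 1.65 and 2.26 in G, 28.8, 31.5 and 33.8 in R and 62.7, 52.8 and 61.3 in Y. Its Y values lay above all P and R values, but B replicate 1 was higher still. Cluster-64249.100051, the other one for Y, had 189, 102 and 47.1 TPM in B, 63.5, 102 and 31.1 in P, 0, 9.04 and 0 in G, 219.7, 117 and 251 in R and 264, 193 and 319 in Y. Its Y values were above all B and P values and overlapped with R.

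For P the widest margin was 0.76, in Cluster-64249.138170, with 42.1, 35.5 and 50.9 TPM in P, 24.0, 24.7 and 22.6 in B, 5.69, 6.95 and 0 in G, 27.2, 21.8 and 25.3 in R and 25.4, 20.4 and 23.4 in Y. The P values lay above all others, but the difference from B of 0.81 ± 0.56 (log2 and SE) did not pass (limma adjusted p = 0.572). The SE pools the spread over all 5 periods, including G with its listed 0 in replicate 3. For P, Cluster-64249.363717 came second, and for R, Cluster-64249.242715 came first, both described above.

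The second for R was Cluster-64249.184392, with 23.6, 36.5 and 65.5 TPM in R, 105, 21.0 and 11.98 in B, 20.8, 75.1 and 13.3 in P, 0, 0 and 4.62 in G and 26.3, 25.1 and 32.3 in Y. All 4 periods outside G overlapped in it. For B the widest margin was in Cluster-64249.124280, with 57.3, 23.2 and 26.4 TPM in B, 7.87, 28.5 and 26.7 in P, 0.39, 0.26 and 0.88 in G, 15.9, 13.6 and 39.9 in R and 15.2, 16.5 and 25.5 in Y. B overlapped there with each of P, R and Y. Cluster-64249.138080 followed, with 52.3, 46.9 and 36.1 TPM in B, 20.5, 34.4 and 26.2 in P, 2.26, 9.01 and 8.94 in G, 37.0, 32.2 and 23.8 in R and 36.4, 25.8 and 22.2 in Y. Its B values lay above all P values and overlapped with R and Y.

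B replicate 1 stood apart from the other B libraries in part of the set. For 12 of the 66 (18.2%) it was over 2 times both other B libraries, beside 3.92% of the 10811, and for none was B replicate 2 or 3 over 2 times its partners. In all 12, B replicate 1 was also above every R and Y library. In 7 of them every R and Y library was above B replicates 2 and 3 as well. The excess ran from 2.02-fold in Cluster-64249.124466 to 10.1-fold in Cluster-64249.124866, over the higher of the other B values. The 12 together had 2142 TPM in B replicate 1, 455 in B replicate 2 and 553 in B replicate 3, while the other 54 had 9932, 9066 and 8192 TPM. B replicate 1 was the highest of all 15 libraries for 27 of the 66, a count for which no share over the 10811 was taken. Its level was also raised outside the set. The median over the 10811 was 23.5 TPM in it, against 21.2 and 20.2 TPM in B replicates 2 and 3. In median-ratio scaling its factor, 1.17, was the largest of all libraries.

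Apart from the clusters already described, the 12 included Cluster-64249.128043, with 45.1, 7.65 and 9.55 TPM in B, 64.2, 28.1 and 8.16 in P, 0.60, 0.67 and 0.25 in G, 16.5, 20.7 and 11.7 in R and 14.7, 25.2 and 24.5 in Y. P was spread as widely as B in it. Cluster-64249.120664 had 86.0, 27.3 and 32.4 TPM in B, 14.9, 14.0 and 21.4 in P, 2.54, 5.54 and 0.53 in G, 62.1, 65.7 and 42.0 in R and 39.1, 45.9 and 54.3 in Y. Here P was even and lay below all the other periods except G. The highest P library of the 12 was replicate 2 in 5, replicate 1 in 4 and replicate 3 in 3. These 12 were gathered after their values were seen, and what sets B replicate 1 apart was not tested.

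**Figure D5:**
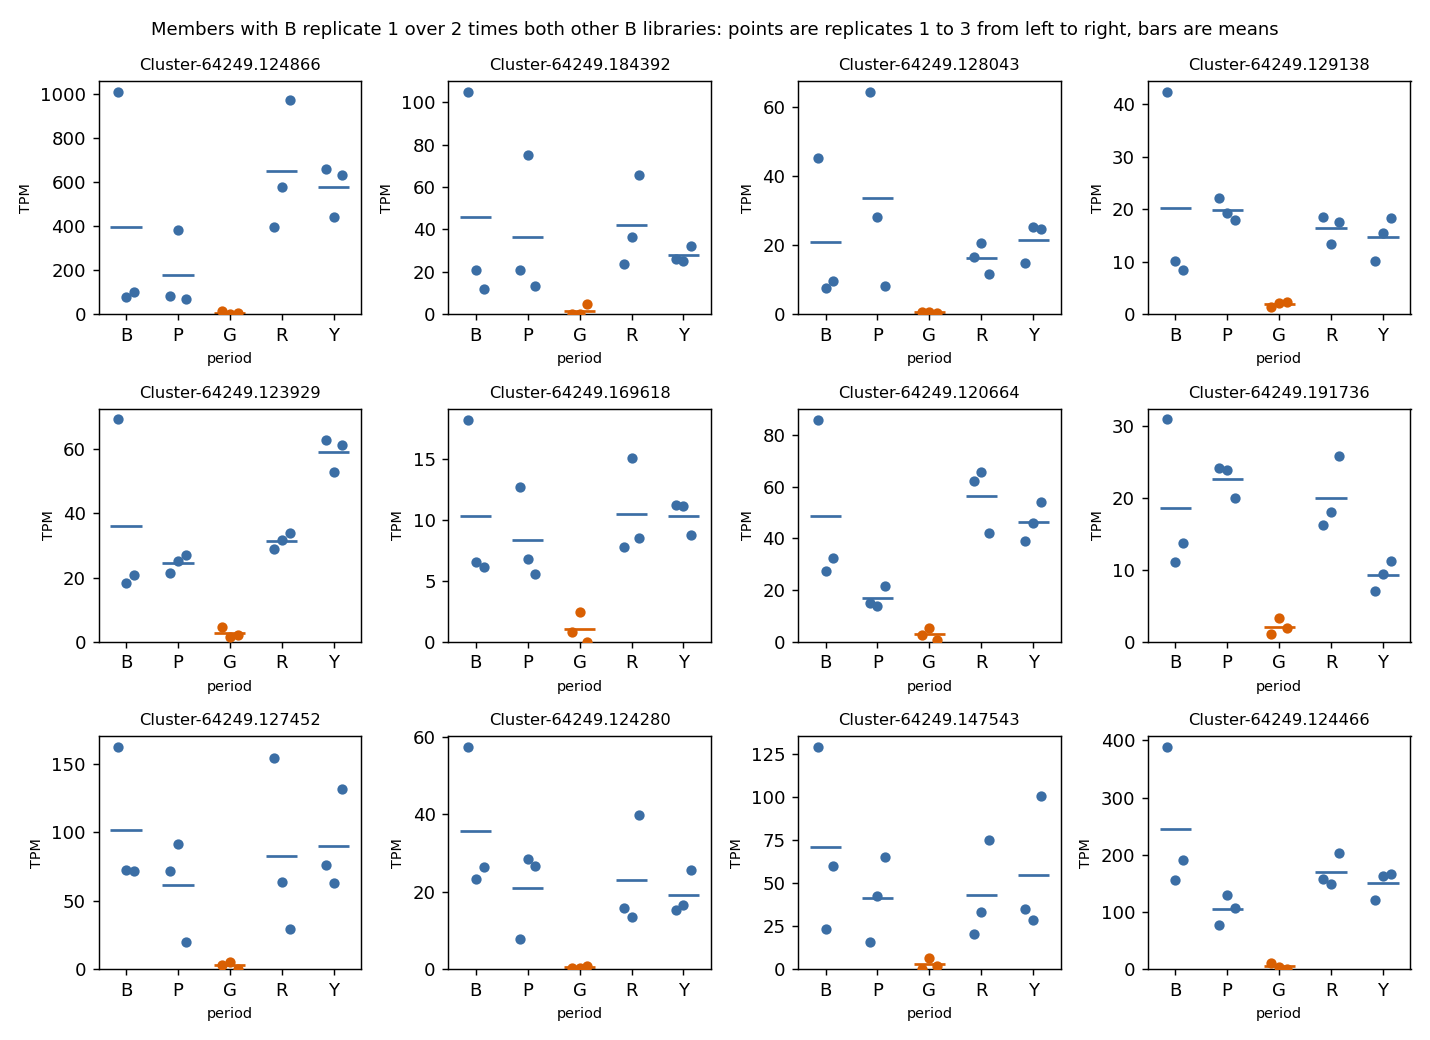
TPM by period for the 12 G-low clusters in which B replicate 1 was over 2 times both other B libraries, ordered by the size of that excess; points are replicates 1, 2 and 3 from left to right, G in orange and the other periods in blue, and bars are period means of 3 libraries. B replicate 1 lies above all R and Y points in each panel, at 1009.8 TPM for Cluster-64249.124866 against 78.0 and 99.8 in the other B libraries.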

How the data were processed

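The authors deposited a single table of TPM values, per its name and its column sums near 1000000. How they assembled transcripts and counted reads is not given in the sources used here. All 15 columns matched a sample by title. Members and tests were chosen with earlier results of these data known.

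Clusters with at least 1 TPM in at least 3 libraries (138664) were tested on log2(TPM + 1), which understates changes of low values. A limma model (version 3.58.1, R 4.3.3) of the 5 period means, with a variance trend, was fitted to all 15 libraries. Each contrast was adjusted by Benjamini-Hochberg over all clusters tested, and calls needed an adjusted p under 0.05. All 66 passed the filter, which the choice ensures. The model was checked on simulated data, where most changes of the smallest size tried were missed. Part of the changes of every larger size tried were missed as well. Counts and values of the 66 came from pandas 2.3.3 on Python 3.11.15. Alternatives were other filters, a pseudocount of 0.1, median-ratio scaling, a replicate block, no trend, library weights, fits on 6 libraries, joint adjustment, leaving out each library and, added after seeing the data, leaving out P. No 2 libraries were identical.

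Clusters printed were the 6 most abundant outside G, the 6 with the widest gap to G (1 added to either value), the 2 with the widest margin for each other period, the 3 highest in G, the smallest p per contrast and direction, and those beside each limit. Others were chosen after their values were seen.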

Additional observations from a re-analysis of the deposited data

How the results depend on the processing

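The number of G-low clusters depended on the limits: 149 with a gap of 1.5 times, 23 with 4 times, 103 with a lowest TPM of 2, 151 without the B minus Y condition, 764 with period means in place of single libraries, and 145 without the P libraries. Leaving out 1 library gave 68 to 128, the most without G replicate 1 (128) and G replicate 2 (112); 61 to 66 of the 66 stayed in each time.

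Counts of calls among the 66 are small and moved with the settings (limma). Apart from median-ratio scaling, the share of all clusters called under each alternative was not taken. The counts are therefore not read as a trait of the 66. P against B, 3, became 6 with a mean TPM of at least 10, 1 with no trend, 7 with joint adjustment and 0 in the fit on 6 libraries; leaving out 1 library gave 1 to 7. R against B, 0, became 2 with a mean TPM of at least 10, and 1 with median-ratio scaling, library weights, joint adjustment, 6 libraries and without the P libraries; leave-outs gave 0 to 1. R against P, 5, became 10 with a mean TPM of at least 10, 3 with no filter and with a pseudocount of 0.1, and 1 with median-ratio scaling and with no trend; leave-outs gave 2 to 6. Y against P, 1, became 8 with a mean TPM of at least 10 (4 higher, 4 lower), 6 with median-ratio scaling and 5 with 6 libraries; leave-outs gave 0 to 4. Y against R, 0, became 1 with library weights and with 6 libraries; leave-outs gave 0. The causes were not tested. Keeping means of at least 10 TPM left 61 of the 66, and it changed which clusters entered both the fit and the adjustment.

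No strong pairing by replicate number was seen: no same-number pair of 30 had deviations correlated over 0.1 (range -0.06 to 0.08), and 7 of 15 libraries correlated best with their own number. Pairs with different numbers ranged from -0.06 to 0.04. Low correlations over all tested clusters cannot show whether samples of the same number shared a plant or a batch. With the replicate block, R against P gave 3, P against B 2 and Y against P 1. None of the calls in P against B, R against P and Y against P changed sign under any alternative run. With median-ratio scaling, though, the Y against P calls went from 1 higher to 6 lower in other clusters. Signs were not compared for the Y against B and G contrasts. TPM keeps no depth, so counting error is unknown.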
